A study of Mus musculus with 15 samples.

Results

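The integrin subunits of microglia, the resident macrophages of the brain, were followed across 4 groups of sorted mouse cells. The set was given by name as 8 gene symbols and took in the alpha subunits Itgam, Itga6, Itgav, Itga4 and Itgal and the beta subunits Itgb2, Itgb5 and Itgb1. Of these, 7 were matched to a row of the deposited table of 13834 genes, and Itgal was not analysed here. The rule that names them uses no measured value and leaves out Itgax, which is described further below. The members were chosen with earlier results of these data known. RNA was sequenced from 15 libraries. The PLX5622 group (n = 4) came from 18-month-old mice that had received PLX5622, which blocks the CSF1 receptor and is used to deplete microglia. The AF-high (n = 5) and AF-low (n = 3) groups came from 18-month-old mice without the compound, and their cells were gated for high or low autofluorescence, the light that cells emit without a stain. Cells of 3-month-old mice formed the young group (n = 3). The dose and schedule of the compound, the gate used for the young and PLX5622 cells, the surface markers of the sort, the strain and sex of the mice and any pooling of animals are not given in the sources. Libraries of a group are biological replicates by their labels, and a p-value here speaks only of the spread among them.

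Integrins are receptors that span the cell membrane as a pair of 1 alpha and 1 beta subunit, and the pairing sets what the receptor binds. They tie the cytoskeleton to the extracellular matrix and to ligands on other cells, and they signal in both directions across the membrane. Itgam (CD11b) pairs with Itgb2 (CD18) to form complement receptor 3, which binds opsonised material and is a common surface marker of microglia. Itgav pairs with Itgb5 in a vitronectin receptor that takes part in the uptake of dying cells, and Itgav also pairs with other beta subunits that release active TGF-beta from its latent form. Itgb1 is the shared partner of Itga6, in a laminin receptor, and of Itga4, in a receptor for VCAM1 and fibronectin. An alpha subunit whose partner is not made does not reach the surface, so mRNA levels of 1 subunit do not give the amount of receptor.

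The genes are all protein coding and lie on the plus strand of GRCm38 in the GENCODE M21 annotation. Itgam lies at chr7:128062640-128118491, Itgb2 at chr10:77530252-77565708, Itgb5 at chr16:33829665-33949338 and Itgb1 at chr8:128685654-128733200. Chromosome 2 holds Itga6 at chr2:71745616-71858416, Itga4 at chr2:79255426-79333123 and Itgav at chr2:83724397-83806916. RefSeq promoter sequences (GRCm38.p6) were matched for 5 of the 7 members. The 150 bases before the start of Itgam and of Itgb1 are shown because these members passed an unadjusted p under 0.05 in PLX5622 against AF-high and in AF-high against young, with opposite signs. They run 5′ to 3′ on the plus strand, from chr7:128062490-128062639 for Itgam and from chr8:128685504-128685653 for Itgb1. Capitals mark GAGGAA or its reverse complement TTCCTC, a purine-rich hexamer of the kind bound by PU.1, the transcription factor that directs macrophage development.
Itgam: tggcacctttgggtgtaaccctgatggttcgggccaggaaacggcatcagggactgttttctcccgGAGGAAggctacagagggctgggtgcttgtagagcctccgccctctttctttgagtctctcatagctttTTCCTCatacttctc
Itgb1: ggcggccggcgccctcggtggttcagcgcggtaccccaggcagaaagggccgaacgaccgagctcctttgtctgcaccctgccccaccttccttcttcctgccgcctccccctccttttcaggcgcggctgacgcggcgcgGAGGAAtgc
The Itgam window held 2 matches, at bases -84 and -15 from the gene start, and the Itgb1 window held 1, at base -9. Over the full 250 bases before the start, Itgav held 2 matches, and Itgb5 and Itga4 held 0. Matches on either strand were counted, and 7639 of 32851 promoter windows of that length (23.3%) held at least 1. A match describes the letters of the window and is not evidence of binding.

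Levels are given in TPM, transcript abundance on a common total and corrected for transcript length. Ranks of genes and ratios of subunits rest on this scale. The RNA was amplified before sequencing, and any unequal amplification of transcripts was not measured. Itga6 was the most abundant member, with a mean of 1123 TPM over the 15 libraries, and ranked first among the members in 15 of 15 libraries. Itgam followed at 452 TPM and Itgb5 at 367 TPM. Itgam ranked second in 12 libraries, whereas Itgb5 did so in PLX5622 4, young 2 and young 3, and the ranges of these genes overlapped in every group except AF-high. Itgav at 139 TPM and Itgb2 at 135 TPM could not be ordered, since Itgav was the higher of the pair in 8 of 15 libraries. Itgb1 at 87.7 TPM was sixth and Itga4 at 7.09 TPM last in 15 of 15 libraries. The summed TPM of the 7 members was 2202 ± 66.6 in PLX5622, 2389 ± 214 in AF-high, 2436 ± 92.2 in AF-low and 2197 ± 127 in young libraries (SD). The plot of member levels by library shows the spread within each group.

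**Figure D1:**
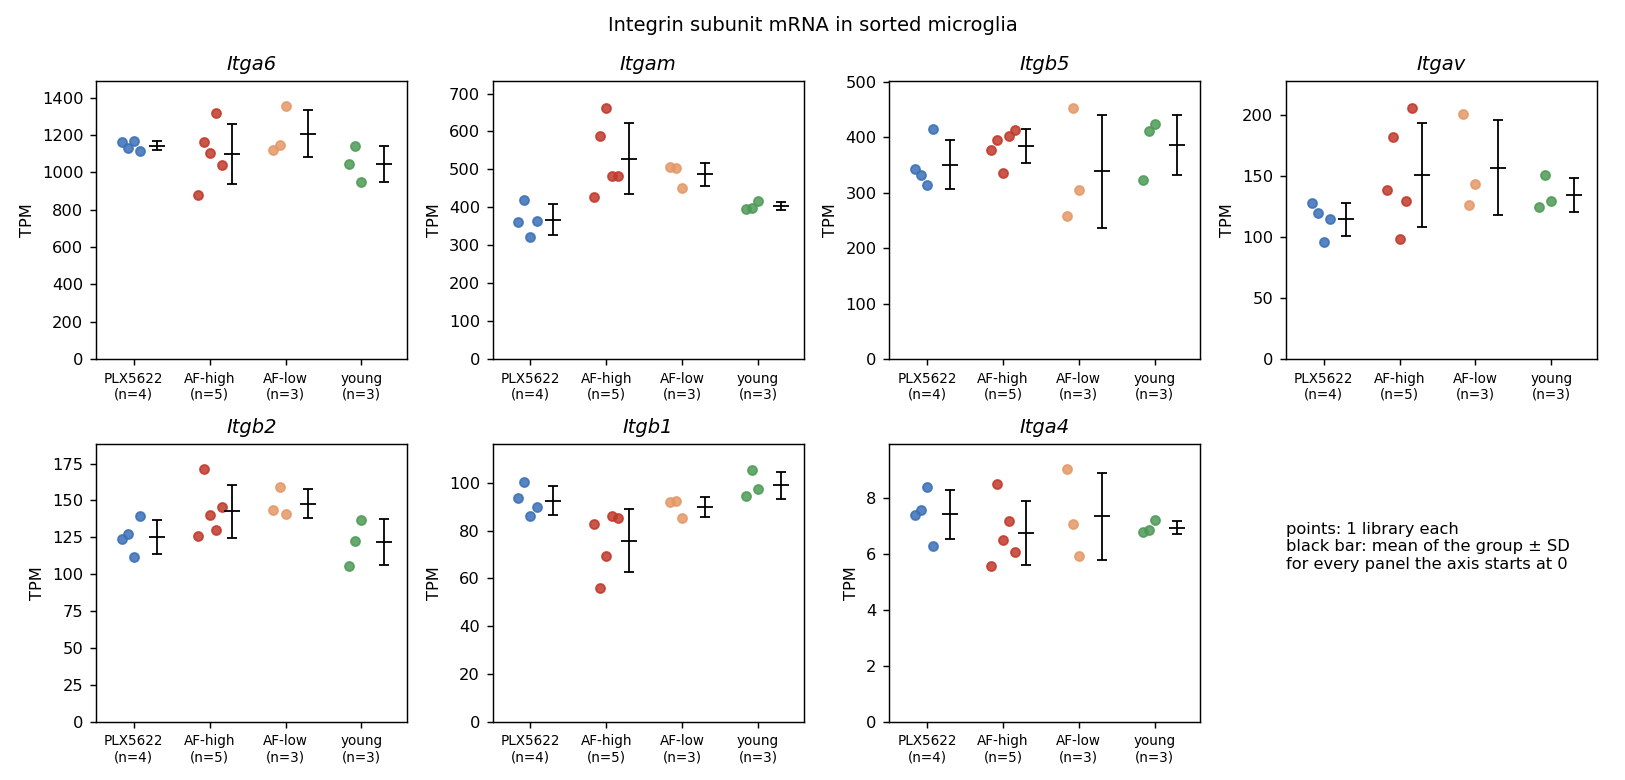
TPM of the 7 integrin members (linear axes that start at 0), 1 point per library, with the mean ± SD of each group as a black bar. Itgam lay between 322 and 420.1 TPM in PLX5622 and between 428 and 662 TPM in AF-high libraries, with no overlap, and Itgb1 lay lower in AF-high than in young libraries.

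Differences between groups were tested with limma on log2(TPM + 1) over the 13175 genes with at least 1 TPM in at least 3 libraries, and adjusted p-values are Benjamini-Hochberg values over all of these genes. A gene was called at an adjusted p under 0.05. No member was called: 0 of 7 passed in each of the 8 comparisons. The comparisons share libraries, so their results are not independent of each other. Where groups are said not to overlap, this is a description without a test. It was not counted over all genes, and groups of 3 to 5 libraries can separate by chance.

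For PLX5622 against AF-high, 0.63% of all genes were called, and at an unadjusted p under 0.05 there were 2 of 7 members, Itgam and Itgb1, beside 15.3% of all genes. For PLX5622 against AF-low the share called was 0.144%, and 1 member, Itgam, passed the unadjusted threshold beside 14.3% of all genes. For PLX5622 against both old gates the share was 1.36%, and 2 members, Itgam and Itgav, passed unadjusted beside 16.7% of all genes. Itgam was the member that passed the unadjusted threshold each time the compound was set against an untreated old group. For PLX5622 against young, 0.0911% of all genes were called, and 0 of 7 members passed unadjusted beside 5.23% of all genes. For AF-high against AF-low, 0% of genes were called, and 0 of 7 members passed unadjusted beside 8.21% of all genes. No member passed either threshold between the gates. For AF-high against young, 0% of genes were called, and 2 members, Itgam and Itgb1, passed unadjusted beside 11% of all genes. For AF-low against young, 0.0455% were called, and 0 members passed unadjusted beside 11.8% of all genes. For both old gates against young, 0.182% were called, and 1 member, Itgam, passed unadjusted beside 12.3% of all genes. Spread over 7 genes, these unadjusted backgrounds come to about 1 gene or fewer, so the members' counts of 0 to 2 lay near the background in every comparison.

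The median log2 difference of the 7 members was -0.14 for PLX5622 against AF-high, beside -0.02 for all genes tested. It was 0.06 for AF-high against young, beside -0.08 for all genes, and 0.19 for AF-low against young, beside -0.04 for all genes. For PLX5622 against young the members' median of -0.10 stood beside -0.11 for all genes, so in that comparison the members lay where the typical gene lay. For PLX5622 against both old gates the members' median was -0.03, beside -0.03 for all genes, and for PLX5622 against AF-low it was -0.07, beside -0.05 for all genes. For AF-high against AF-low the medians were -0.08 for the members and -0.04 for all genes, and for both old gates against young 0.14 and -0.06.

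**Figure D2:**
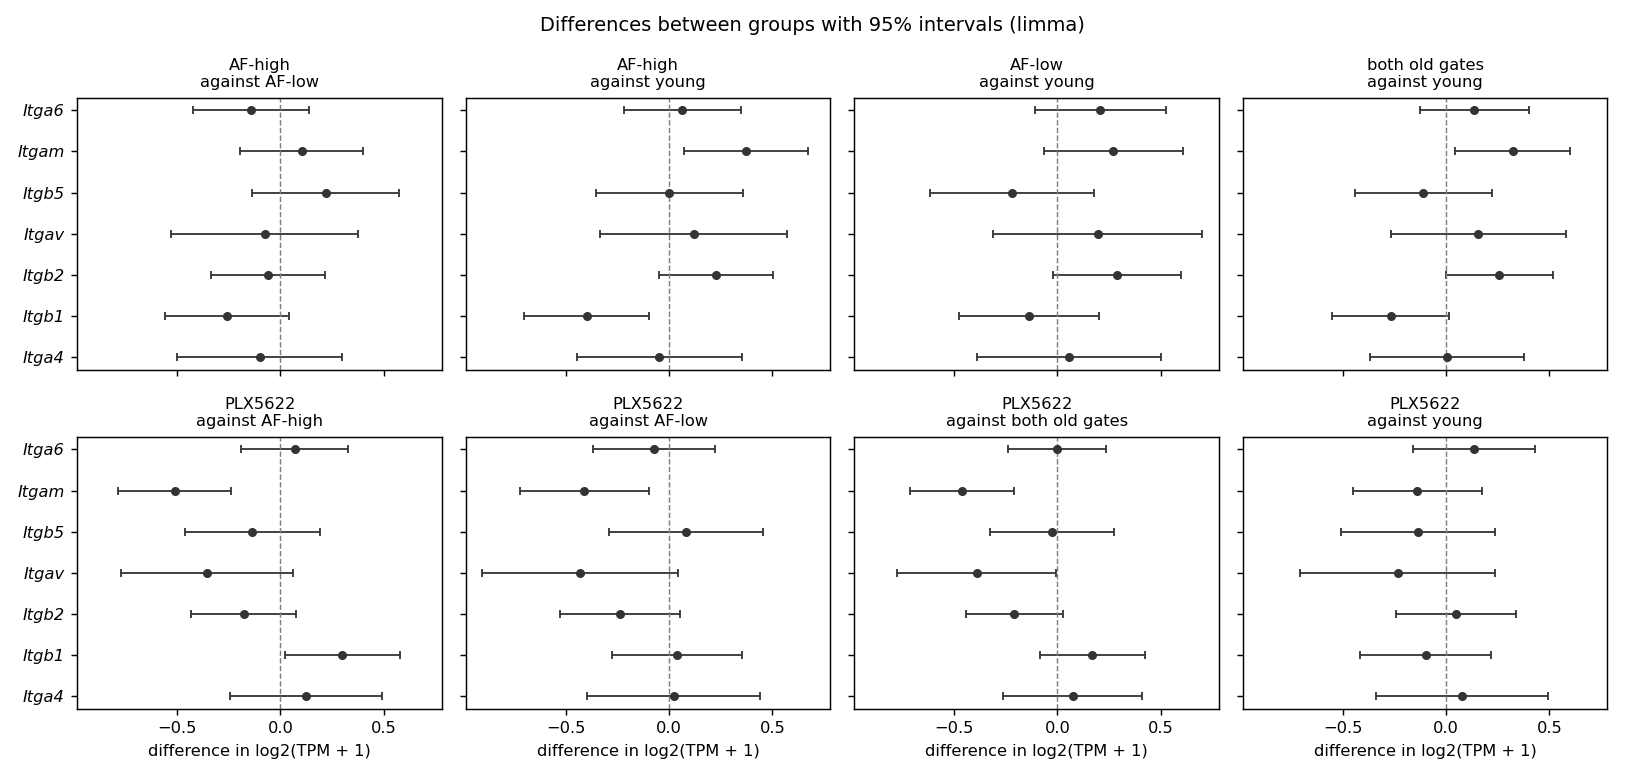
Difference of each member in log2(TPM + 1) between groups (x axis; first-named group minus second), with limma's 95% interval, for the 8 comparisons. The intervals of Itgam lie below 0 in the 3 comparisons of PLX5622 with untreated old microglia, and the intervals of Itgb5, Itga6 and Itga4 cross 0 in all 8 panels.

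Itgam, the alpha subunit of complement receptor 3, was the member with the largest difference. It stood at 362, 420.1, 322 and 365 TPM in PLX5622 libraries. In AF-high libraries it stood at 428, 589, 662, 483 and 482 TPM. In AF-low libraries it stood at 505, 504 and 451 TPM. All PLX5622 libraries lay below all untreated libraries of the same age, and the closest were PLX5622 2 and AF-high 1. In young libraries it stood at 395, 398 and 416 TPM, below every AF-high and AF-low library and inside the range of PLX5622. The mean level was 367 ± 40.5 TPM in PLX5622, 528 ± 94.6 TPM in AF-high, 487 ± 30.7 TPM in AF-low and 403 ± 11.2 TPM in young libraries (SD).

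On the log2(TPM + 1) scale Itgam differed by -0.51 ± 0.13 (SE) in PLX5622 against AF-high, with a 95% interval of -0.79 to -0.24 and an adjusted p of 0.0763. Against AF-low the difference was -0.41 ± 0.15 (adjusted p = 0.222), and against both old gates it was -0.46 ± 0.12, with an interval of -0.71 to -0.21 and an adjusted p of 0.0678. These values missed the threshold, and they passed it in some alternatives: without AF-high 1 the adjusted p was 0.0454 against AF-high and 0.0416 against both old gates, and with array weights it was 0.0264 against both old gates. The old, untreated groups lay above young by 0.37 ± 0.14 for AF-high (adjusted p = 0.336), by 0.27 ± 0.16 for AF-low (adjusted p = 0.520) and by 0.32 ± 0.13 for both (adjusted p = 0.331). None of these passed, and without AF-high 2, AF-high 3 and AF-low 1 the first was 0.20. PLX5622 and young libraries overlapped, and their difference had a 95% interval of -0.45 to 0.17.

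In bulk RNA of sorted cells, fewer cells of a type and less RNA per cell cannot be told apart. Beside Itgam, the summed level of 9 of 10 markers of border-associated macrophages, which also express Itgam, was 137 to 170.3 TPM in PLX5622, 251 to 334 TPM in AF-high, 301 to 364 TPM in AF-low and 182 to 242 TPM in young libraries. Stab1 was the largest part of this sum, with means of 112 TPM in PLX5622, 184 TPM in AF-high, 173 TPM in AF-low and 148 TPM in young libraries. Mrc1, the mannose receptor, averaged 8.75 TPM in PLX5622, 23.3 TPM in AF-high, 32.2 TPM in AF-low and 17.9 TPM in young libraries. Mgl2 was not lowest in PLX5622, with 0.94 TPM there, 0.77 TPM in AF-high, 1.88 TPM in AF-low and 2.64 TPM in young libraries. None of the 9 was at 0, and Clec10a was not analysed here. The part of these cells in the Itgam difference was not tested. The 2 libraries with the most Itgam, AF-high 2 and AF-high 3, also had the most mitochondrially encoded RNA, 5.38% and 7.66% of TPM, beside 1.57% to 2.70% in the other libraries. Without both of these and AF-low 1, Itgam differed by -0.34 in PLX5622 against AF-high (adjusted p = 0.111). AF-low 1 was left aside on earlier results of these data that are not shown here, and its share of mitochondrially encoded RNA was 2.63%.

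Itgb2, the common beta subunit of the leukocyte integrins, varied less than Itgam. It stood at 124, 127, 111 and 139 TPM in PLX5622 and at 126, 171, 139.9, 130.1 and 146 TPM in AF-high libraries. The AF-low values were 144, 159 and 141 TPM and the young values 106, 122 and 137 TPM. AF-low lay above young and above PLX5622 without overlap, while PLX5622 overlapped with AF-high and with young. Itgb2 differed by 0.29 ± 0.15 in AF-low against young (95% interval -0.02 to 0.60, adjusted p = 0.458) and by 0.26 ± 0.12 in both old gates against young (adjusted p = 0.411), and neither passed the test. Without young 1 these differences were 0.19 and 0.16, and without young 1 and 2 they were 0.11 and 0.08. The residual SD of Itgb2 on the log2 scale was 0.153, at percentile 3.99 of the genes tested, whose median was 0.339.

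The ratio of Itgam to Itgb2 mRNA compares the partners of complement receptor 3 inside each library. It was 2.92, 3.31, 2.89 and 2.62 in PLX5622 libraries and 3.40, 3.44, 4.73, 3.71 and 3.31 in AF-high libraries. The groups touched but did not overlap, with PLX5622 2 just below AF-high 5. The mean ratio was 2.93 ± 0.28 in PLX5622, 3.72 ± 0.59 in AF-high, 3.30 ± 0.19 in AF-low and 3.34 ± 0.36 in young libraries (SD). The mean log2 ratio differed by -0.33 in PLX5622 against AF-high (exact permutation test, two-sided, p = 0.0159, the smallest that 4 against 5 libraries allow), and the adjusted p over the 18 ratio tests was 0.286. Among the alpha subunits that pair with Itgb2 and were measured, Itgam made up 96.5% ± 0.76 of the summed TPM in PLX5622, 97.7% ± 1.35 in AF-high, 95.9% ± 2.05 in AF-low and 98.9% ± 0.39 in young libraries (SD). The others were Itgax and Itgad.

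**Figure D3:**
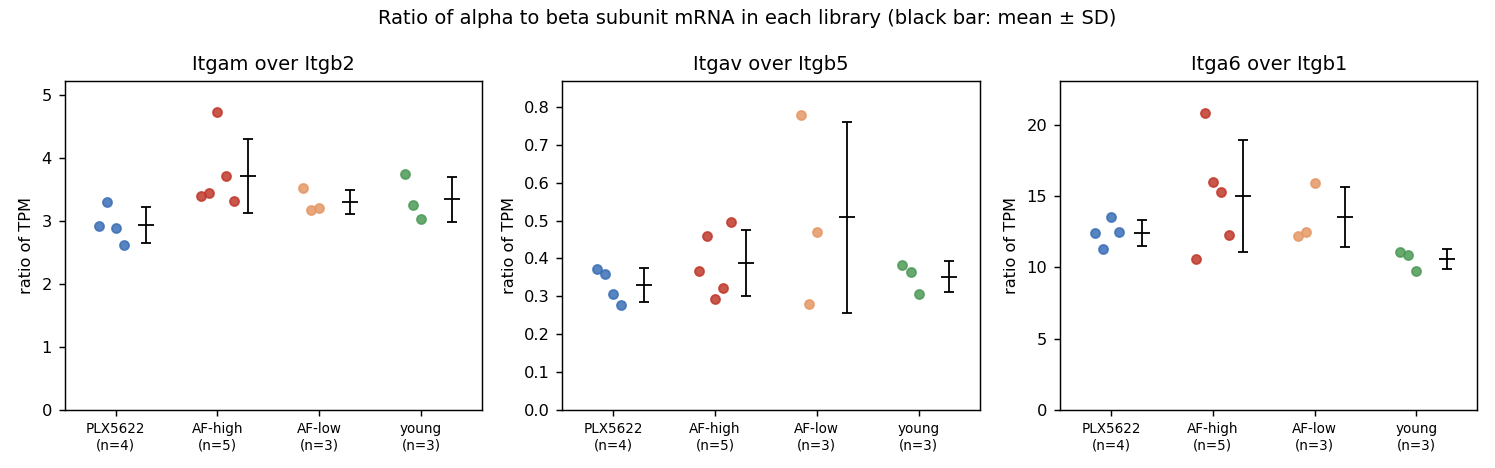
Ratio of alpha to beta subunit TPM in each library (linear axes that start at 0), 1 point per library, with the mean ± SD of each group as a black bar. The Itgam to Itgb2 ratio averaged 2.93 in PLX5622 and 3.72 in AF-high libraries, and the Itga6 to Itgb1 ratio ranged from 10.6 to 20.8 inside AF-high.

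Itgav, the alpha subunit of the vitronectin receptors, was the member with the widest spread inside groups, with a residual SD of 0.311 on the log2 scale. It stood at 128, 119.5, 95.8 and 115 TPM in PLX5622 libraries. In AF-high libraries it stood at 138, 182, 98.6, 129 and 205 TPM, a range that held every other library except PLX5622 3. The AF-low values were 201, 126 and 143 TPM and the young values 124, 150.3 and 129 TPM. PLX5622 overlapped with each of the other groups. Itgav differed by -0.39 ± 0.18 in PLX5622 against both old gates (95% interval -0.78 to -0.01, adjusted p = 0.290) and by -0.43 ± 0.22 in PLX5622 against AF-low (interval -0.90 to 0.04, adjusted p = 0.400). In PLX5622 against young the difference was -0.23 ± 0.22 (adjusted p = 0.979). None of the 3 passed the test. The difference was -0.24 against AF-low without AF-low 1, and -0.15 against young without young 2 or without PLX5622 3.

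Itgb5, which pairs with Itgav alone among the alpha subunits, was about as abundant as Itgam. It stood at 344, 332, 313 and 415 TPM in PLX5622 and at 378, 395, 335, 401 and 414 TPM in AF-high libraries. In AF-low it stood at 258, 453 and 306 TPM, the lowest and the highest values of the series. In young libraries it stood at 324, 411 and 423 TPM. All 4 groups overlapped. Its difference in AF-high against AF-low was 0.22 ± 0.17 (95% interval -0.14 to 0.58, adjusted p = 0.748), and it was 0.04 without AF-low 1 and 0.45 without AF-low 2. In AF-high against young the means were 385 ± 30.5 and 386 ± 54.5 TPM.

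Itgav reached 0.33 ± 0.05 of the level of Itgb5 in PLX5622, 0.39 ± 0.09 in AF-high, 0.51 ± 0.25 in AF-low and 0.35 ± 0.04 in young libraries (SD), so the beta subunit was the more abundant mRNA of this pair, in contrast to Itgam with Itgb2 and Itga6 with Itgb1. The smallest p of its 6 comparisons was 0.286 (exact permutation test, two-sided), for PLX5622 against AF-high, where the mean log2 ratio differed by -0.22, and also for PLX5622 against AF-low, where it differed by -0.52. Both had an adjusted p of 0.514 over the 18 ratio tests. AF-low 1, with a ratio of 0.78, held both the lowest Itgb5 of the series and the highest Itgav of its group.

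Itga6, the laminin-binding alpha subunit, was 1 of the most abundant mRNAs, above 99.2% of the genes in the table. It stood at 1161, 1131, 1167 and 1116 TPM in PLX5622, the tightest group. In AF-high libraries it stood at 878, 1161, 1104, 1317 and 1041 TPM. In AF-low it stood at 1121, 1148 and 1356 TPM and in young libraries at 1043, 1144 and 949.6 TPM. All groups overlapped, and between its lowest and highest library Itga6 varied by a factor of 1.54, the least of the 7 members. In PLX5622 against young it differed by 0.13 ± 0.14 (95% interval -0.16 to 0.43, adjusted p = 0.979), with 0.20 without young 2 and 0.07 without young 3. The median of all genes in that comparison was -0.11 and moved to -0.01 with median-of-ratios scaling, under which Itga6 differed by 0.25. Of the summed TPM of all measured alpha subunits, Itga6 made up 64.2% ± 2.54 in PLX5622, 53.3% ± 5.68 in AF-high, 55.4% ± 6.30 in AF-low and 59.98% ± 2.28 in young libraries (SD).

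Itgb1, the beta subunit that pairs with the most alpha subunits, had its lowest mean in AF-high libraries. It stood at 93.6, 100.2, 86.1 and 89.7 TPM in PLX5622 and at 82.8, 55.8, 69.2, 86.1 and 85.1 TPM in AF-high libraries. The lowest values belonged to AF-high 2 and AF-high 3, the libraries with the most Itgam. In AF-low it stood at 92.1, 92.2 and 85.1 TPM and in young libraries at 94.4, 105 and 97.2 TPM. AF-high lay below young without overlap and, by less than 0.1 TPM, below PLX5622, while AF-low overlapped with AF-high and with PLX5622 and lay below young. Itgb1 differed by -0.40 ± 0.14 in AF-high against young (95% interval -0.70 to -0.10, adjusted p = 0.319). In PLX5622 against AF-high it differed by 0.30 ± 0.13 (interval 0.02 to 0.58, adjusted p = 0.287), and in AF-high against AF-low by -0.26 ± 0.14 (interval -0.56 to 0.04, adjusted p = 0.656). None passed the test. With quantile normalization the difference was 0.43 in PLX5622 against AF-high, -0.43 in AF-high against young and -0.20 in AF-high against AF-low. Without AF-high 2 the difference was 0.19 in PLX5622 against AF-high and -0.15 in AF-high against AF-low. Without AF-high 2, AF-high 3 and AF-low 1 together it was 0.12 and -0.06 in these comparisons and -0.22 in AF-high against young (adjusted p = 0.346).

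Itga6 mRNA exceeded that of its partner Itgb1 12.4 ± 0.92-fold in PLX5622, 14.98 ± 3.93-fold in AF-high, 13.5 ± 2.09-fold in AF-low and 10.6 ± 0.70-fold in young libraries (SD). The log2 ratio in PLX5622 against young differed by 0.23 (exact permutation test, two-sided, p = 0.0571, the smallest that 4 against 3 libraries allow; adjusted p = 0.459 over the 18 ratio tests). AF-high 2 had the highest ratio, 20.8, and AF-high 1 the lowest of that group, 10.6.

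Itga4, the alpha subunit of the VCAM1 receptor, was the scarcest member and is better known from lymphocytes and monocytes. It stood at 7.41, 7.59, 8.39 and 6.29 TPM in PLX5622 and at 5.56, 8.51, 6.50, 7.17 and 6.07 TPM in AF-high libraries. The AF-low values were 9.04, 7.06 and 5.95 TPM and the young values 6.79, 6.85 and 7.22 TPM. All groups overlapped. Its differences between groups lay between -0.10 and 0.12 on the log2 scale over the 8 comparisons, the narrowest range of the members, and 5 of the 8 changed sign in some alternative. Summed markers of monocytes, of which 3 of 6 were measured, lay between 4.56 and 10.1 TPM over all libraries. Of 12 markers of T and NK cells, 2 were measured, Cd3d and Cd8a. Their sum reached 40.3 TPM in AF-high libraries, with a median of 5.77 TPM there, and at most 11.2 TPM in the other groups. The part of such cells in the Itga4 levels was not tested.

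Genes whose levels ran most closely with each member were looked for among 9140 genes with a mean of at least 5 TPM, by Pearson's r of log2(TPM + 1) over the 15 libraries. The libraries fall into groups and share their source, so these values are a description without a test. Itgam ran closest with Ube2j1, a ubiquitin-conjugating enzyme of the endoplasmic reticulum (r = 0.95), and with Hmgb2, a chromatin protein (r = 0.94). Ube2j1 averaged 132 TPM in PLX5622, 231 TPM in AF-high, 195 TPM in AF-low and 149.8 TPM in young libraries, which is the order of groups that Itgam had. Itgb2 ran closest with the transcription factor Klf4 (r = 0.91) and the adaptor Blnk (r = 0.88). Klf4 averaged 179 TPM in PLX5622, 265 TPM in AF-high, 271 TPM in AF-low and 165 TPM in young libraries. Itgav ran closest with the adaptor Sh2b3 (r = 0.93) and with Ncstn, a subunit of gamma-secretase (r = 0.91). Itgb5 ran closest with Saraf, a regulator of store-operated calcium entry, and P4hb, a protein disulfide isomerase (r = 0.90 each). Itgb1 ran closest with Pfkfb2, which controls glycolytic flux, and with Bccip (r = 0.93 each). Itga4 ran closest with the SUMO protease Senp7 (r = 0.90) and with the autophagy factor Atg13 (r = 0.85). Itga6 had the loosest neighbours, the sulfate transporter Slc13a1 (r = 0.79) and the transcription factor Mitf (r = 0.75). Among the members themselves r was 0.70 for Itgam with Itgb2, -0.64 for Itgam with Itgb1 and -0.54 for Itgb2 with Itgb1, and it was 0.00 for Itgav with Itgb5.

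A further 15 integrin subunits were measured, of which 9 met the filter. Itga5, the alpha subunit of the fibronectin receptor, was the most abundant of them in some libraries and the most uneven of those with a mean above 5 TPM. It stood at 47.9, 38.9, 32.2 and 76.0 TPM in PLX5622, at 211, 134, 42.3, 55.2 and 351 TPM in AF-high, at 337, 52.0 and 246 TPM in AF-low and at 47.1, 53.2 and 43.2 TPM in young libraries. High values thus occurred in AF-high 1, 2 and 5 and AF-low 1 and 3, and the other untreated old libraries lay in the range of PLX5622. Itga9, a tenascin and osteopontin receptor subunit that pairs with Itgb1, averaged 79.1 ± 6.60 TPM in PLX5622, 98.5 ± 17.8 TPM in AF-high, 90.7 ± 28.1 TPM in AF-low and 88.3 ± 10.6 TPM in young libraries. Itgb3, a partner of Itgav, averaged 25.3 ± 5.65 TPM in PLX5622, 21.4 ± 5.72 TPM in AF-high, 27.5 ± 3.34 TPM in AF-low and 29.4 ± 0.98 TPM in young libraries. Itgb3 thus stood well below Itgb5, which shares that partner, in every group. Itgax (CD11c) was the 1 subunit called: it rose by 1.53 ± 0.27 on the log2 scale in both old gates against young (adjusted p = 0.0355), with 8.47 ± 1.86 TPM in AF-high, 13.7 ± 6.55 TPM in AF-low and 2.90 ± 0.06 TPM in young libraries. This call held in 14 of 27 alternatives, with a lowest adjusted p of 0.00154. It was lost on leaving out any of 9 single libraries (AF-high 5, AF-low 1 or 3, PLX5622 2, 3 or 4, or any young library). It was also lost with a replicate block and with only the groups of this comparison in the model, where 0 genes were called. The Itgax difference was 1.37 to 1.78 over all alternatives. Young libraries also held astrocyte marker sums of up to 266 TPM, beside at most 142 TPM elsewhere, and choroid plexus marker sums of up to 8805 TPM, beside at most 376 TPM elsewhere. The highest sums were in young 1 and young 2, and without both the Itgax difference was 1.56 (adjusted p = 0.9995). Whether those cells had a part in the calls against young was not tested. The remaining subunits averaged below 5 TPM over the 15 libraries. They were Itga2b, Itgad, Itgb7, Itgae, Itga11, Itgb6, Itga7, Itgb8, Itga10, Itga1 and Itga2. Itgb8, the partner of Itgav in the release of TGF-beta, reached 2.58 and 2.10 TPM in young 1 and young 2 and at most 0.87 TPM elsewhere. In these libraries the choroid plexus markers came to at least 5808 TPM, and the part of those cells in the Itgb8 values was not tested either.

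**Figure D4:**
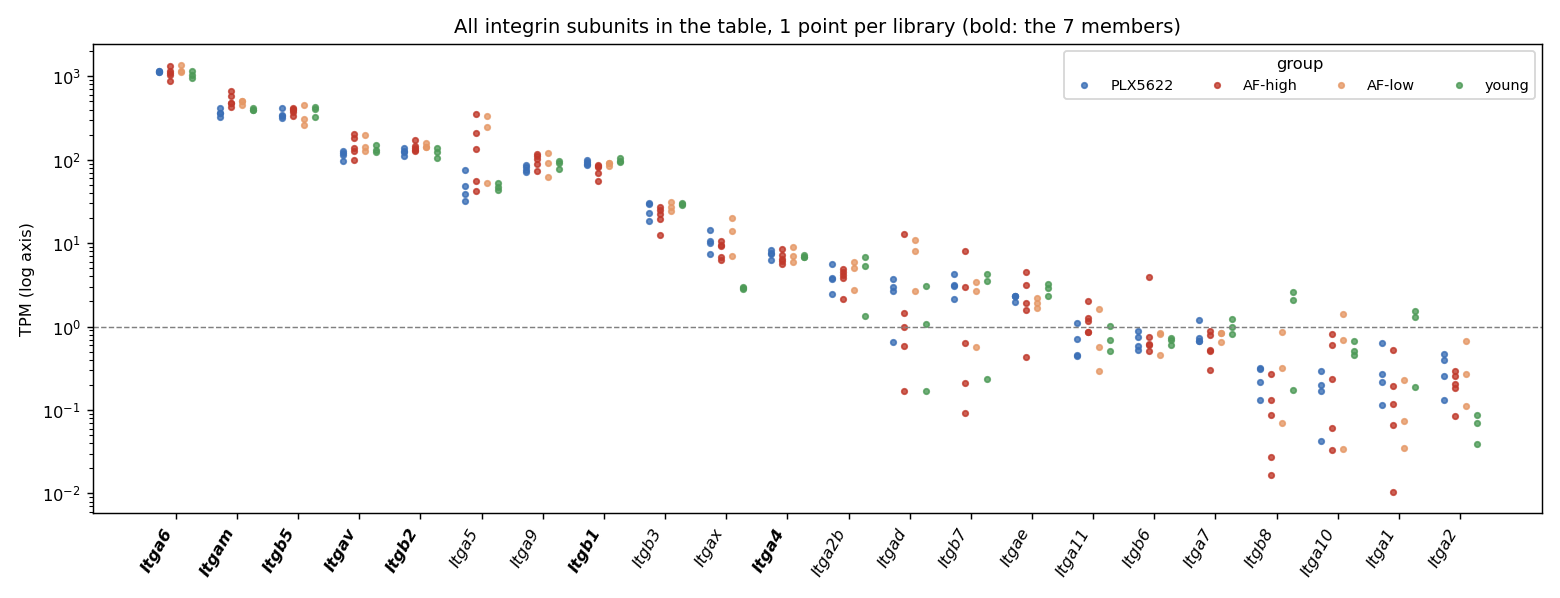
TPM of all 22 integrin subunits measured (log axis), 1 point per library, coloured by group and ordered by mean level; members are in bold and the dashed line marks 1 TPM. Itga6 is highest in all groups, Itga5 spreads from 32.2 to 351 TPM, and Itgax lies lower in the young libraries than in all others.

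The genes that act with integrins were read from 4 further lists. Of 42 activators and adaptors, which link the cytoplasmic tails to actin and to kinases, 39 were tested and 0 were called by limma in any of the 8 comparisons. Between 1 and 12 of the 39 passed an unadjusted p under 0.05 in each comparison, beside 5.23% to 16.7% of all genes. In PLX5622 against both old gates 1 was higher and 11 were lower, beside 16.7% of all genes in either direction. Of the lower ones the paxillin gene Pxn differed by -1.03 ± 0.26 (adjusted p = 0.0672) and the adaptor Fyb by -0.58 ± 0.15 (adjusted p = 0.0670). Each passed in 4 of 27 alternatives, array weights and leaving out AF-low 2 among them. Adjusted p-values over all alternatives ran from 0.00776 to 0.260 for Pxn and from 0.0102 to 0.253 for Fyb. Of all genes, 179 were called in this comparison, 1042 with array weights and 484 without AF-low 2. The list's median there was -0.12, beside -0.03 for all genes. Fermt3, the kindlin of blood cells that activates integrins, averaged 32.8 ± 4.21 TPM in PLX5622, 35.1 ± 12.3 TPM in AF-high, 32.6 ± 7.21 TPM in AF-low and 40.1 ± 3.58 TPM in young libraries. Fermt2, another kindlin, averaged 1.80 ± 0.48 TPM in PLX5622, 1.94 ± 0.41 TPM in AF-high, 2.46 ± 0.90 TPM in AF-low and 5.44 ± 1.64 TPM in young libraries. The part of the choroid plexus and astrocyte transcripts of young 1 and young 2 in the Fermt2 level was not tested.

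Of 37 ligands, 20 were tested. Spp1, which encodes osteopontin, a ligand of Itgav receptors, was the 1 ligand called. It rose by 2.34 ± 0.38 on the log2 scale in both old gates against young (adjusted p = 0.0313) and by 2.96 ± 0.43 in PLX5622 against young (adjusted p = 0.0125). Its level was 18.5 ± 3.34 TPM in PLX5622, 13.9 ± 8.63 TPM in AF-high, 12.2 ± 6.47 TPM in AF-low and 1.56 ± 0.71 TPM in young libraries. The first call held in 18 of 27 alternatives. It was lost without AF-low 1 or 3, young 1 or 2, or PLX5622 2 or 3. It was also lost with only the groups of that comparison in the model, where 0 genes were called. The other call held in 21 of 27 and was lost without young 1 or 2 or PLX5622 1 or 4. Both were lost with a replicate block, with adjusted p-values of 0.1097 and 0.116. Over all alternatives the differences were 2.06 to 2.92 for the first and 2.68 to 3.59 for the other. Without young 1 and young 2, the libraries with the choroid plexus and astrocyte transcripts, Spp1 differed by 2.07 in both old gates and by 2.68 in PLX5622 against young, and neither was called (adjusted p = 0.9995 and 1.00). Against both old gates PLX5622 differed by 0.62 ± 0.35 (adjusted p = 0.390), which did not pass. Icam1, a ligand of the receptor of Itgam and Itgb2, averaged 379 ± 21.1 TPM in PLX5622, 453 ± 105 TPM in AF-high, 391 ± 20.7 TPM in AF-low and 385 ± 48.9 TPM in young libraries, and no ligand was called lower in any comparison.

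Of 8 partners of latent TGF-beta, 3 were tested, and of 11 membrane partners, mostly tetraspanins, 11 were tested. For both lists limma called 0 genes in all 8 comparisons, and at an unadjusted p under 0.05 there were 0 to 1 of the TGF-beta partners and 1 to 5 of the membrane partners. The share of all genes at that threshold was 5.23% to 16.7%, depending on the comparison. In PLX5622 against both old gates, 1 latent TGF-beta partner was lower at an unadjusted p under 0.05, namely Nrros, which anchors latent TGF-beta on microglia. It averaged 196 ± 0.91 TPM in PLX5622, 232 ± 17.4 TPM in AF-high, 239 ± 42.3 TPM in AF-low and 217 ± 31.7 TPM in young libraries, and its difference of -0.25 ± 0.11 had an adjusted p of 0.266. Of the 11 membrane partners, 4 were lower and 1 higher at an unadjusted p under 0.05 in the same comparison, beside 16.7% of all genes in either direction. Plaur, the urokinase receptor that binds integrins, differed most, by -1.71 ± 0.54 (adjusted p = 0.125). It passed in 2 of 27 alternatives, with adjusted p-values from 0.00992 (without AF-low 2) to 0.330. Its level was 56.8 ± 10.3 TPM in PLX5622, 228 ± 140 TPM in AF-high, 275 ± 225 TPM in AF-low and 52.6 ± 6.61 TPM in young libraries.

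All 10 microglial markers were measured, and their summed level lay between 8620 and 9271 TPM in PLX5622, 8121 and 12011 TPM in AF-high, 6587 and 9170.1 TPM in AF-low and 10080.2 and 11701 TPM in young libraries, so the markers that define microglia were present throughout. Totals per library ran from 956489 to 963145 TPM. TPM keeps no record of reads, so depth is unknown and no counting error can be given.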

How the data were processed

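Microglial RNA was amplified with the Ovation system and sequenced from low-input libraries, per the labels' protocols. The authors deposited 1 table of TPM, named as filtered, with 13834 genes and 15 libraries and 0 values equal to 0; 19 symbols had become dates. Tools were FastQC 0.11.8, Salmon 1.0.0 and DESeq2 (no version given) with build GRCm38 (mm10), per the submitters' processing notes. The filter is not given in the sources.

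Columns were matched to libraries by the labels' short names. Values were taken as log2(TPM + 1), which understates changes of low genes, for the 13175 genes with at least 1 TPM in at least 3 libraries. All 15 libraries entered 1 model in limma 3.58.1 (R 4.3.3; variance trend; 11 residual degrees of freedom, 4.15 prior ones in the median), with two-sided tests. The script was tested on simulated data. Ratios of subunits were compared with exact permutation tests (SciPy 1.17.1), 3 ratios in 6 comparisons. Members and gene lists were chosen with earlier results of these data known.

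Named were, per comparison, members with an adjusted p under 0.05, otherwise the 2 with the smallest p; the levels of other integrin subunits; of other lists, called genes, the 4 smallest p at most; and the 2 genes closest to each member by r. Values of Mrc1, Stab1, Mgl2, Fermt2, Fermt3, Icam1, Nrros, Pxn, Fyb and Plaur are given outside this rule and were chosen after their values were seen. The 27 alternatives changed the pseudocount, filter, variance trend, scaling, weights, libraries or block.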

Additional observations from a re-analysis of the deposited data

Results flagged for a closer look

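Integrin subunits were screened for a library that stood apart from the rest of its group with Dixon's criterion, for the subunit levels and the 3 subunit ratios in the groups of 4 or 5 libraries, 50 combinations in all. Of these, 3 were marked, and chance marks about 1 in 20. None was a member or a ratio. Itgae, the partner of Itgb7 in intraepithelial lymphocytes, was lowest in PLX5622 3 at 1.95 TPM, with the others of that group between 2.33 and 2.36 TPM. Itga7, a laminin receptor subunit of muscle, was highest in PLX5622 1 at 1.21 TPM, with the others between 0.671 and 0.731 TPM. Itgb6, an epithelial partner of Itgav, was highest in AF-high 5 at 3.92 TPM, with the others between 0.505 and 0.751 TPM. All 3 subunits lay below 5 TPM, where a single library's value cannot be given a sampling error without read counts.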

How the results depend on the processing

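No difference printed with an adjusted p changed sign under any of the 27 alternatives. Of the smaller Itga4 differences, 5 of 8 did. Small differences of other members did so too. Among them were Itgb5 in AF-high against young (8 alternatives), Itga6 in PLX5622 against both old gates (6) and Itgav in AF-high against AF-low (5). The count of members called stayed at 0 in 213 of 216 combinations of comparison and alternative. It was 1 (Itgam) for PLX5622 against both old gates with array weights. Leaving out 1 library gave counts from 0 to 1 for PLX5622 against AF-high and from 0 to 1 for PLX5622 against both old gates; the count of 1 arose without AF-high 1, the AF-high library with the least Itgam. Over all alternatives the Itgam difference ran from -0.58 to -0.34 in PLX5622 against AF-high (adjusted p 0.0454 to 0.258) and from -0.53 to -0.31 in PLX5622 against both old gates (adjusted p 0.0264 to 0.278). Quantile normalization made several differences smaller: that of Itgam was 0.14 in AF-low against young and -0.22 in PLX5622 against AF-low, that of Itgav was -0.22 in PLX5622 against AF-low and -0.23 in PLX5622 against both old gates, and that of Nrros was -0.09 in PLX5622 against both old gates. Without AF-low 2, Spp1 differed by 0.40 in PLX5622 against both old gates. With median-of-ratios scaling Itgav differed by -0.12 in PLX5622 against young. The cause of these changes was not tested. Counts over all genes moved more: for PLX5622 against both old gates 179 genes were called, 1042 with array weights and 3 with a replicate block. With the replicate block 0 members were called in every comparison, and Itgam differed by -0.54 in PLX5622 against AF-high (adjusted p = 0.159). Same-numbered libraries of different groups deviated together with r between -0.08 and 0.14. The labels do not say that the numbers pair libraries. With groups of 3 to 5 libraries, these values cannot show whether same-numbered libraries shared mice or processing. For Itgax, Spp1, Pxn, Fyb, Nrros and Plaur the alternatives were added after the data were seen, and 28 of those values lost a call. All 28 belonged to Itgax and Spp1, the genes that had a call to lose. The Itgax call held in 14 of 27 alternatives, and the Spp1 calls in 18 of 27 (both old gates against young) and 21 of 27 (PLX5622 against young). The ratio of Itgal to Itgam was planned and not run. Without read counts, depth sets an unknown limit on Itga4 and the other subunits of low level.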
